A study of Drosophila melanogaster with 12 samples.

Results

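The genes described here encode proteins of the synaptic vesicle cycle, the presynaptic active zone and the adhesion scaffolds on either side of the synapse. They are 40 genes listed by name for these roles, with no threshold on their values, out of 17050 in the deposited table, and all 40 were found there, endoA under the spelling EndoA. The overlapping genes stnA and stnB had the same reads in 12 of 12 libraries and were counted as 1 signal, which leaves 39 signals. By role, 5 signals are calcium sensors, 6 belong to the SNARE fusion machinery and 4 are other vesicle-associated proteins. A further 8 are listed under the active zone, 9 under endocytosis and 7 under synaptic adhesion and its scaffolds.

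Transmitter is released when a vesicle SNARE zippers up with SNAREs of the plasma membrane, after priming by Unc-13 proteins and upon calcium binding to a synaptotagmin. Active zone scaffolds hold vesicles and calcium channels close together, and dynamin and its partners then take the membrane back by endocytosis. The γ neurons of the mushroom body, the learning centre of the fly brain, prune their larval axons early in metamorphosis and later grow adult ones, so that their synapses are taken apart and rebuilt. That is the course of γ neurons in general, and whether the cells measured here followed it was not examined.

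RNA was measured in 12 libraries of Drosophila melanogaster γ neurons, 3 for each of 6, 12, 18 and 24 h after the puparium formed, with replicate letters A, B and C. All came from 1 genotype: y,w/+ flies with 1 copy of the nuclear marker UAS-RedStinger (UAS-RedStinger/+), in which the driver 71G10, placed opposite UAS-HR51 RNAi, switches on both the marker and RNA interference against the nuclear receptor gene Hr51. Each library came from 1000 red cells sorted from dissociated brains of males and females taken at random, so the cells are those in which this driver was active. A control genotype was not analysed here, so only times could be compared, and no value below says what the interference itself did. Whether the letters mark separate dissections is not stated in the labels, and p-values thus reflect only how far these libraries lay apart, which may be technical.

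Mapped reads per library numbered 1597241 to 3752666 (median 2345769), and values are reads per 10000000 mapped reads, so that 1 read was worth 2.665 to 6.261. The gene aimed at, Hr51, had values of 4144, 5044 and 5666 at 6 h, 5045, 3741 and 3794 at 12 h, 5373, 4325 and 2661 at 18 h, and 3256, 2813 and 3646 at 24 h. Of 15 γ-neuron marker genes 15 had reads, and their summed value was 295777 to 324558 at 24 h, against 197499 to 238545 at 6 h. The largest part of that sum was mamo, at 148289 to 181831 at 24 h, against 83570 to 113302 at 6 h. The log2 change for 24 h with 6 h was above 0 for 14 of the 15 genes over 12 libraries. In replicates B and C it was above 0 for 11 of 15. A pan-neuronal list without members had reads for 8 of 8 genes and a sum of 147860.0 to 178893 at 24 h, against 84890.0 to 114597 at 6 h. Its largest part was fne, at 76872 to 98636 at 24 h, against 41315 to 59461 at 6 h. CadN was at 10749 to 12676 at 24 h, against 6005 to 21150 at 6 h. With members of that list included, 10 of 11 genes had a log2 change above 0 over 12 libraries. The glial list had reads for 10 of 10 genes and a sum of 1453 to 2620 at 24 h, against 2305 to 4754 at 6 h. Most of it came from nrv2, at 1202 to 2598 at 24 h, against 2210 to 4690 at 6 h. The list's defining gene repo reached at most 7.26 at 24 h, against at most 51.7 at 6 h. The photoreceptor list (6 of 10 genes with reads, most of the sum from norpA at 5189 to 6395 at 24 h, against 1697 to 3459 at 6 h) summed to 5253 to 6471 at 24 h, against 1703 to 3627 at 6 h, and the muscle list (9 of 10, most of it from bt at 4848 to 6752, against 864 to 2860.2) to 5070 to 6832 at 24 h, against 876.5 to 2920 at 6 h, while Arr1, Arr2, trpl, inaD and Mhc were at 0 in every library. Sums of the fat body, hemocyte, dividing-cell and other-transmitter lists were 3.164 to 168.4, 112.3 to 544.7, 12.66 to 255.2 and 474.6 to 999.9 at 24 h. At 6 h they were 18.78 to 224, 5.33 to 353.2, 155.1 to 206.6 and 431.7 to 914.1. Most of the hemocyte sum was Pxn, at 107.16 to 544.73 at 24 h, against 353.22, 5.33 and 43.83 at 6 h. Limma called Pxn higher for 24 h with 6 h in B and C (log2 change 4.919). The part of all these lists in the results below was not tested. In bulk samples, fewer cells of a type and less RNA per cell cannot be told apart.

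Replicate A at 6 h and replicate A at 12 h went against their labels. Over 647 genes that changed over time in replicates B and C, members left out, the 6 h replicate A had a Pearson correlation of -0.77 with the average of B and C from its own time, of 0.75 with the 18 h average and of 0.74 with the 24 h average. For the 12 h replicate A the correlation was 0.84 with the 6 h average and -0.10 with that of its own time. Replicate A at 18 h (0.31 with its own time) and at 24 h (0.68) had positive values. These are descriptions over genes measured in the same libraries, and genes are not independent. Counts of calls, and the tests of the members called, are given over all 12 libraries and over the 8 libraries of B and C (2 per time), while some members that were not called are given for B and C alone. The set of B and C was chosen with results of these data known, after replicate A at 6 h and 12 h was seen to go against its labels. It also leaves out replicate A at 18 h and 24 h. Adjusted p-values from B and C may thus be too small.

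Nearly all of the synaptic genes were measured. Of the 39 signals, 38 reached a value of 50 in 3 or more libraries and were tested, 37 had reads in all 12 libraries, and the neuroligin gene Nlg1 had no read in any. Their median coefficient of variation over the 12 libraries was 28.6%, against 43% for all 6969 genes tested, and 14 signals were below 25%. Their median mean value was 1623, against 378.6 for all genes tested, and the variation was not compared at matched levels. The members took 1.41% to 1.69% of the mapped reads at 6 h, 1.45% to 1.52% at 12 h, 1.38% to 1.47% at 18 h and 1.56% to 1.82% at 24 h. Reads from 3′ ends were not scaled by gene length, and differences in level between genes were not tested.

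**Figure D1:**
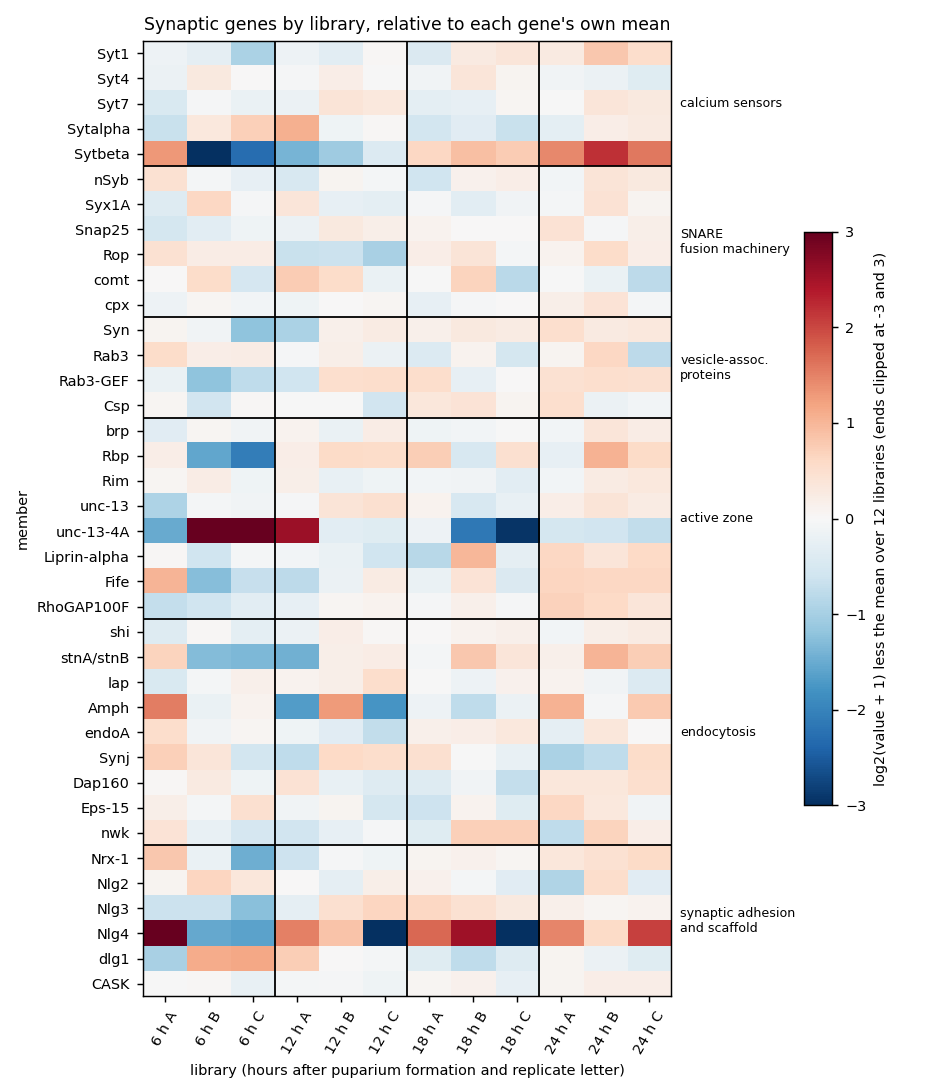
Each cell gives log2(value + 1) of a gene in a library less that gene's mean over 12 libraries, with genes in rows grouped by role, libraries in columns by time and letter, red for higher and blue for lower, clipped at -3 and 3. Most rows are pale, and Sytbeta, unc-13-4A, Nlg4, Rbp, Amph and stnA/stnB are among those that are not. In unc-13-4A, dlg1, stnA/stnB and Sytbeta the 6 h replicate A departs from B and C of its time.

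Over all 12 libraries, no member passed the test in any comparison. Genes were called where limma (moderated test on log2(value + 1), Benjamini-Hochberg over all 6969 genes) gave an adjusted p below 0.05, and limma called 0% of all genes in each of the 5 comparisons, as did edgeR. At an unadjusted p under 0.05, limma gave 11 members for 24 h with 6 h, 10 of them higher, where the share of all genes was 13.5%. It gave 6 for 12 h with 6 h (4.75% of all genes), 3 for 18 h with 12 h (6.14%), 2 for 24 h with 18 h (6.95%) and 9 when all 4 times were tested for any change (9.9%). DESeq2 on the recovered reads called 4 members for 24 h with 6 h, namely Syt1, Rab3-GEF, RhoGAP100F and Nlg3, all higher, against 2.83% of all genes. Its test of any change called RhoGAP100F and Nlg3, against 1.74% of all genes. It called 0 members in the other comparisons, in which it called 0.043% of all genes for 12 h with 6 h, 0.0717% for 18 h with 12 h and 0.33% for 24 h with 18 h.

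In replicates B and C, 11 of 38 members were called for 24 h with 6 h, 9 higher (5.29% of all genes) and 2 lower (4.78%), in all 10.1% of genes tested. For 12 h with 6 h, 6 were called, against 5.6% of all genes, with 4 higher (3.3%) and 2 lower (2.3%). For 18 h with 12 h and for 24 h with 18 h, 1 member was called each, unc-13-4A both times, against 0.359% and 0.129% of all genes. Any change over the 4 times was called for 10 members, against 9.44%. The median log2 change of the 38 members for 24 h with 6 h was 0.34, against 0.07 over all genes tested, and in all 12 libraries it was 0.24, against -0.0029. Of the 11 members called for 24 h with 6 h in B and C, 5 changed in the same direction in replicate A, and for all 702 genes called this share was 39.2%. Of the 6 members called for 12 h with 6 h, 2 changed in the same direction in replicate A, against 7.18% of all 390 genes called. Without the intensity trend of limma, 4 of the 11 were called in B and C, namely Sytbeta, Rbp, stnA/stnB and unc-13-4A, against 3.85% of all genes.

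**Figure D2:**
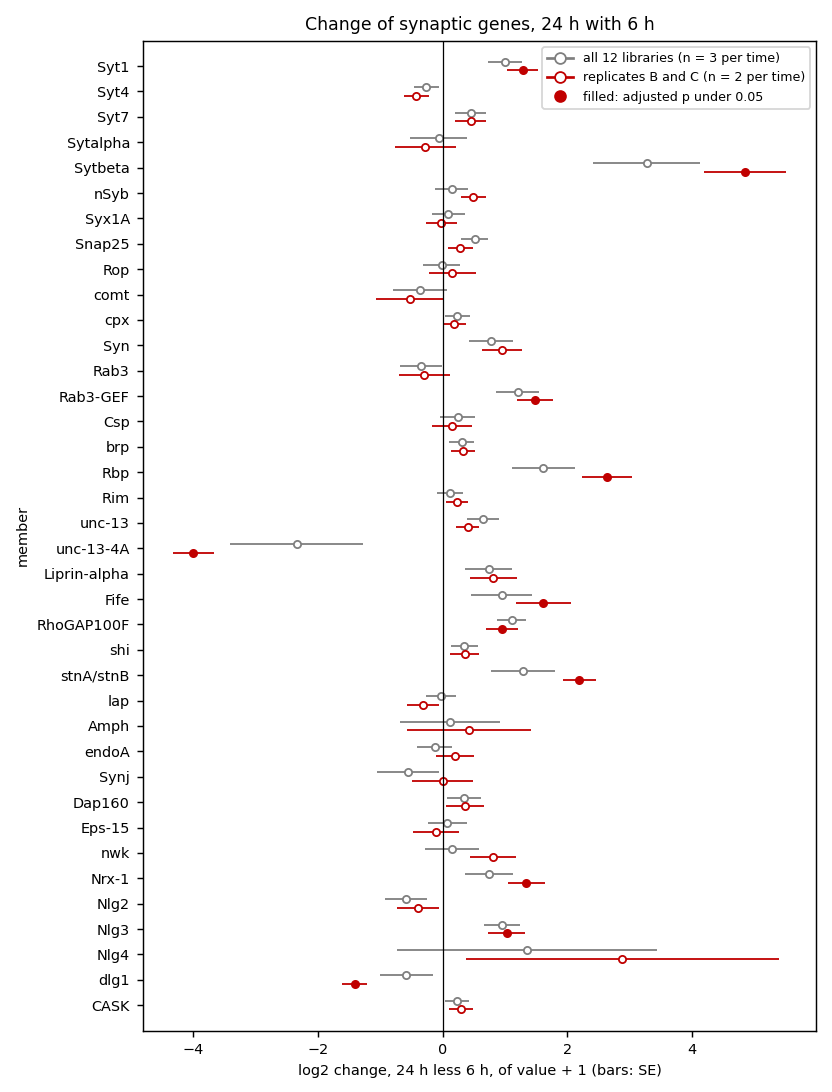
Points give the log2 change (24 h less 6 h, on log2(value + 1)) of the 38 members tested, with bars for the SE, in grey for all 12 libraries and in red for replicates B and C, filled where the adjusted p was under 0.05. Sytbeta at 4.85 and unc-13-4A at -4.001 lie at the ends for B and C, no grey point is filled, and most SNARE and endocytosis genes lie near 0.

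Among the calcium sensors, Sytbeta and Syt1 were higher at 24 h in replicates B and C and the others were not called. Sytbeta, a synaptotagmin family member (FBgn0261090, chr3L:15014695-15064977, minus strand, dm6 build), had values in replicates A, B and C of 767, 24.0 and 62.6 at 6 h, 117, 147 and 232 at 12 h, 473, 582 and 529 at 18 h, and 837, 1411 and 933 at 24 h. All 3 libraries at 24 h lay above all 3 at 6 h, and the 6 h replicate A stood far above B and C of its time. Replicates B and C rose to 1172 ± 338 at 24 h, against 43.3 ± 27.3 at 6 h (SD, n = 2 each), with a log2 change of 4.85 ± 0.65 (± SE here and below; limma, adjusted p = 9.99e-05). Over 12 libraries the log2 change was 3.28 ± 0.86 (limma, adjusted p = 0.165).

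Syt1, the calcium sensor of fast synchronous release (FBgn0004242, chr2L:2772327-2799979, minus strand), had 3722, 3432 and 2129 at 6 h, 3737, 3303 and 4237 at 12 h, 3057, 4941 and 5347 at 18 h, and 4996, 7249 and 5952 at 24 h. The 24 h libraries did not overlap with those at 6 h, with A included. The log2 change for 24 h with 6 h was 1.28 ± 0.25 in B and C (limma, adjusted p = 0.00270) and 0.995 ± 0.27 over 12 libraries (adjusted p = 0.177). Without the 24 h replicate B the call in B and C was lost. Syt4, whose protein is known from postsynaptic vesicles at the fly neuromuscular junction, ranged from 5204 to 8561 over the 12 libraries, and its log2 change in B and C was -0.43 ± 0.20 (adjusted p = 0.221). Syt7, a further calcium-binding family member, ranged from 1344 to 2436 and Sytalpha from 232 to 769, and neither was called.

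The SNARE fusion machinery had 0 of 6 members called by limma in either set of libraries. For 24 h with 6 h in B and C, 10.1% of all genes were called. Complexin (cpx), which clamps and promotes SNARE-driven fusion, had 16722, 19317 and 17474 at 6 h, 16911, 18897 and 19520.3 at 12 h, 15807, 18118 and 18652 at 18 h, and 21076, 24579.8 and 17758 at 24 h. Its highest library was 1.56 times its lowest, and the times overlapped. Snap25, a SNARE of the plasma membrane, had 3157, 3651 and 4207 at 6 h, 4059.6, 5649 and 5154 at 12 h, 4909, 4608 and 4605 at 18 h, and 6226, 4436 and 5131 at 24 h. All its 24 h libraries lay above those at 6 h, with a log2 change of 0.52 ± 0.22 over 12 libraries (limma, adjusted p = 0.316) and 0.28 ± 0.20 in B and C (adjusted p = 0.482).

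The vesicle SNARE gene nSyb ranged from 2958 to 6121, with a log2 change of 0.49 ± 0.20 for 24 h with 6 h in B and C (limma, adjusted p = 0.153). The syntaxin gene Syx1A ranged from 3067 to 6124, and comt, which encodes the NSF ATPase that takes SNARE complexes apart, from 321 to 946. Syx1A lies wholly inside the gene 4EHP on the same strand (4164 shared bases), so its reads and those of 4EHP may not be told apart. Rop, the Sec1/Munc18 partner of syntaxin, was named after its values were seen. It had 956, 813 and 814 at 6 h, 436, 445 and 356 at 12 h, 802, 916 and 668 at 18 h, and 750.1, 1019 and 799 at 24 h. The 3 libraries at 12 h lay below all 9 others, A included, and the log2 change for 12 h with 6 h was -1.06 ± 0.29 over 12 libraries (adjusted p = 0.956) and -1.03 ± 0.38 in B and C (adjusted p = 0.149), so it was not called.

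Of the 4 other vesicle-associated genes, Rab3-GEF was called in B and C. It encodes the exchange factor that loads the vesicle GTPase Rab3 (FBgn0030613, chrX:15089682-15113744, plus strand), and had 1241, 616 and 845 at 6 h, 939, 2028 and 2062 at 12 h, 2069, 1207 and 1434 at 18 h, and 1949, 2028 and 1997 at 24 h. The 24 h libraries lay close together and above all 6 h libraries. In B and C the log2 change was 1.48 ± 0.29 for 24 h with 6 h (limma, adjusted p = 0.00251) and 1.502 ± 0.29 for 12 h with 6 h (adjusted p = 0.00415), against 1.20 ± 0.34 (adjusted p = 0.185) and 0.87 ± 0.34 (adjusted p = 0.985) over 12 libraries. The call for 12 h with 6 h was lost without the 12 h replicate C.

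Synapsin (Syn), which tethers reserve vesicles, had 1719, 1506 and 707 at 6 h, 849, 1804 and 1932 at 12 h, 1804, 1983 and 1919 at 18 h, and 2317, 1974 and 2026 at 24 h. Its 24 h libraries lay above those at 6 h, and the 6 h replicate C was far below A and B. The log2 change was 0.95 ± 0.32 in B and C (limma, adjusted p = 0.0775) and 0.78 ± 0.35 over 12 libraries (adjusted p = 0.346). Rab3 ranged from 632 to 1696, and Csp, a vesicle chaperone, from 939 to 1975, and neither was called.

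Of the 8 members listed under the active zone, 3 were higher (Rbp, Fife and RhoGAP100F) and 1 lower (unc-13-4A) at 24 h than at 6 h in B and C. Among all genes, 5.29% were called higher and 4.78% lower. The core scaffold genes brp and Rim each had a coefficient of variation of 14.2% over the 12 libraries and were not called by limma. Bruchpilot (brp), the ELKS-related protein of the T-bar, had 10183, 13430.5 and 12033 at 6 h, 13997, 11321 and 15159.7 at 12 h, 11952, 12278 and 12791 at 18 h, and 12186, 16659.7 and 15238 at 24 h. Its log2 change for 24 h with 6 h was 0.33 ± 0.19 in B and C (limma, adjusted p = 0.343).

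Rim, a vesicle-docking and channel-tethering scaffold, had 34856, 39513 and 30985 at 6 h, 38119, 28922 and 30978 at 12 h, 31793, 31072 and 27224 at 18 h, and 32032, 39892 and 42064 at 24 h. It was among the genes with most reads, at rank 13 to 34 of the table in each library, and its times overlapped, with a log2 change of 0.23 ± 0.17 in B and C (limma, adjusted p = 0.509). Rbp, the RIM-binding protein that links Rim to calcium channels (FBgn0262483, chr3R:15374635-15402543, plus strand), had 1008, 298 and 207 at 6 h, 1016, 1315 and 1279 at 12 h, 1461, 629 and 1232 at 18 h, and 745, 1829 and 1311 at 24 h. All values of B and C after 6 h lay above those at 6 h, but the 6 h replicate A was as high as later libraries. The log2 change for 24 h with 6 h was 2.64 ± 0.40 in B and C (limma, adjusted p = 2.77e-04) and 1.61 ± 0.51 over 12 libraries (adjusted p = 0.211). For 12 h with 6 h it was 2.38 ± 0.40 in B and C (adjusted p = 0.00154) and 1.59 ± 0.51 over 12 libraries (adjusted p = 0.985).

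Fife, a Piccolo and RIM related scaffold (FBgn0264606, chr3L:2655415-2711690, minus strand), had 1197, 242 and 363 at 6 h, 339.7, 519 and 696 at 12 h, 516, 781 and 435 at 18 h, and 913, 908 and 912 at 24 h. The 3 libraries at 24 h nearly coincided, and at 6 h replicate A lay above them and B and C below. The log2 change in B and C was 1.61 ± 0.44 (limma, adjusted p = 0.0298), a call lost without the 6 h replicate B or either 24 h library, and over 12 libraries it was 0.95 ± 0.49 (adjusted p = 0.421). It shares 41 bases with Snup and CG42304 on the other strand.

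RhoGAP100F, the fly Syd-1 that acts early in active zone assembly (FBgn0039883, chr3R:31812609-31846570, plus strand), had 1059.6, 1149 and 1396 at 6 h, 1472, 1817 and 1883 at 12 h, 1713, 1928 and 1701 at 18 h, and 2827, 2661 and 2244 at 24 h. Each 24 h library exceeded all the earlier ones, replicate A included. The log2 change for 24 h with 6 h was 0.95 ± 0.26 in B and C (limma, adjusted p = 0.0287) and 1.10 ± 0.23 over 12 libraries (adjusted p = 0.0993). The call in B and C was lost without the 6 h replicate B or without either 24 h library.

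The priming factor gene unc-13 (FBgn0025726, chr4:867824-912331, minus strand) had 3420.2, 6276 and 6035 at 6 h, 6374, 8453 and 9099 at 12 h, 6995, 4667 and 5609 at 18 h, and 7496, 8480.2 and 7746 at 24 h. Values of B and C were high at 12 h and 24 h and lower at 6 h and 18 h, and of the limma tests only that of any change over the 4 times called it (adjusted p = 0.0384). That call was lost when any 1 of the 8 libraries was left out, without the filter, without the trend, with median-ratio scaling and with edgeR, and over 12 libraries the adjusted p was 0.503. Its log2 change for 18 h with 12 h was -0.78 ± 0.19 (adjusted p = 0.108) and for 24 h with 18 h 0.66 ± 0.19 (adjusted p = 0.251). DESeq2 on B and C called unc-13 in both of these steps and Rim for 24 h with 18 h, where it called 1.85% of all genes for 18 h with 12 h and 1.49% for 24 h with 18 h. In replicate A the 6 h library was the lowest of all 12.

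The related gene unc-13-4A, of the Munc13-4 branch of the family (FBgn0035756, chr3L:7266192-7312896, minus strand), went the other way and had the smallest adjusted p among the members. Its place under the active zone is that of the list, and whether its protein acts there was not tested. The gene had 426, 13183 and 11464 at 6 h, 7230.1, 970.4 and 949.8 at 12 h, 1097, 274 and 158 at 18 h, and 837, 810.0 and 726 at 24 h. In B and C it fell to 768 ± 59.2 at 24 h, against 12323 ± 1216 at 6 h (SD, n = 2 each), with a log2 change of -4.001 ± 0.32 (limma, adjusted p = 6.32e-07). The low 6 h replicate A and the high 12 h replicate A are the reverse of B and C, and over 12 libraries the log2 change was -2.34 ± 1.07 (adjusted p = 0.348).

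Step by step in B and C, the log2 change of unc-13-4A was -3.68 ± 0.32 for 12 h with 6 h (limma, adjusted p = 3.44e-06), -2.20 ± 0.32 for 18 h with 12 h (adjusted p = 0.0103) and 1.88 ± 0.32 for 24 h with 18 h (adjusted p = 0.0346). Over 12 libraries these were -1.09 ± 1.07 (limma, adjusted p = 0.995), -2.37 ± 1.07 (adjusted p = 0.762) and 1.12 ± 1.07 (adjusted p = 0.864). Its level was thus lowest at 18 h in these replicates. Both later calls were lost without the filter on low values, and that for 18 h with 12 h was lost without the 12 h replicate B or C. That for 24 h with 18 h was lost when any library of B and C other than the 18 h replicate B was left out, and replicate A changed by -0.39 there. Liprin-alpha, a scaffold of active zone assembly and vesicle transport, ranged from 716 to 2536, with a log2 change of 0.81 ± 0.38 for 24 h with 6 h in B and C (adjusted p = 0.224).

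**Figure D3:**
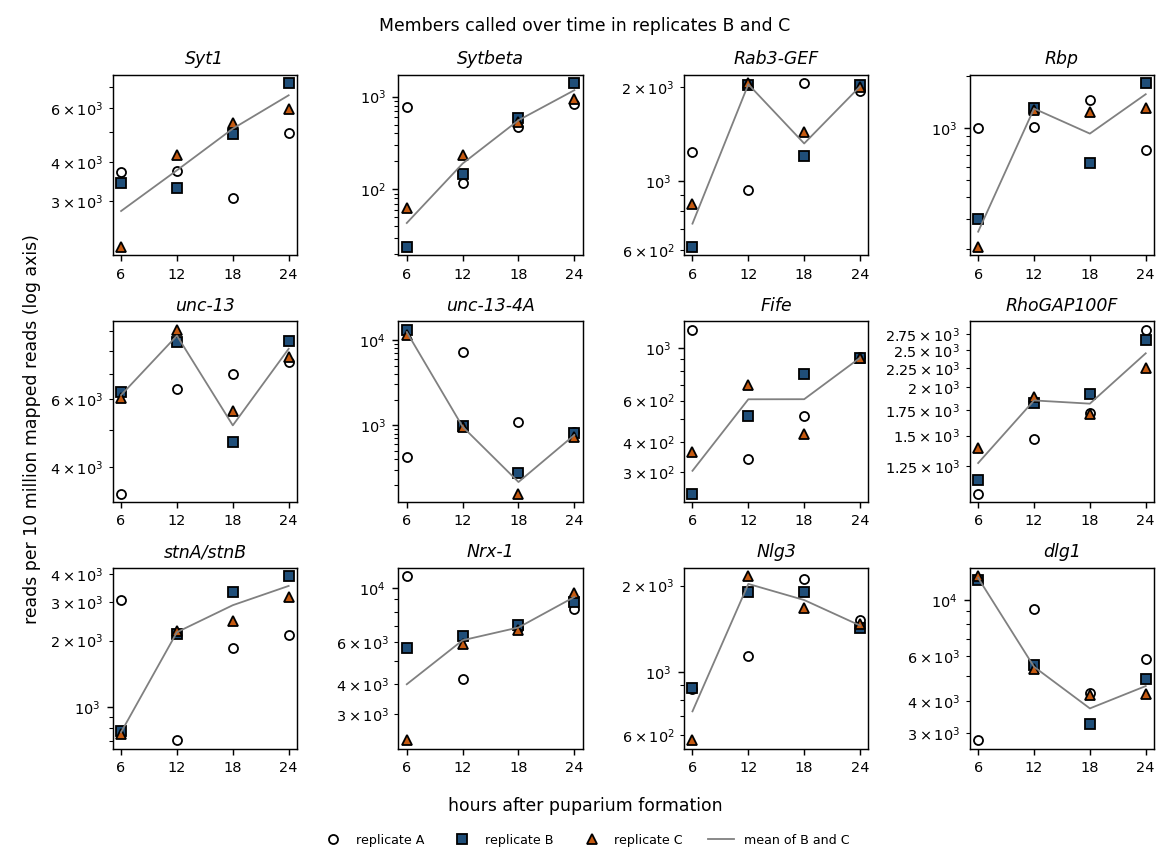
Values (reads per 10000000 mapped reads, log axis) of the 12 members called in any comparison of replicates B and C against hours after puparium formation, with open circles for A, blue squares for B, orange triangles for C and a grey line through the mean of B and C. Sytbeta and stnA/stnB climb over the 4 times, unc-13-4A and dlg1 are highest at 6 h, and the open circles at 6 h and 12 h often lie far from the filled points.

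Of the 9 endocytosis signals, 1 was called in B and C, where 10.1% of all genes were called for 24 h with 6 h. The stoned genes stnA and stnB, which encode endocytic adaptors from a shared locus (FBgn0016976 and FBgn0016975, chrX:22980722-23004648, minus strand), had 3058, 781 and 758 at 6 h, 706, 2152 and 2218 at 12 h, 1843, 3333 and 2458 at 18 h, and 2128, 3911 and 3170.3 at 24 h. Every later library of B and C lay above those at 6 h, while replicate A was highest at 6 h and lowest at 12 h. In B and C the signal rose to 3541 ± 524 at 24 h, against 769 ± 16.4 at 6 h (SD, n = 2 each), with a log2 change of 2.19 ± 0.26 (limma, adjusted p = 2.91e-05). For 12 h with 6 h it was 1.505 ± 0.26 (adjusted p = 0.00189). Over 12 libraries the log2 change was 1.29 ± 0.51 for 24 h with 6 h (limma, adjusted p = 0.297) and 0.30 ± 0.51 for 12 h with 6 h (adjusted p = 0.995).

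The dynamin gene shi, whose product pinches vesicles off, stayed between 1977 and 3083, and lap, the fly AP180 that helps to assemble clathrin, between 1477 and 2930. Values of endoA (endophilin A, a membrane-bending protein) lay between 723 and 1749, those of the phosphatase gene Synj between 281 and 900.3, and those of the intersectin gene Dap160 between 851 and 1961. Eps-15, a clathrin adaptor partner, ranged from 598 to 1408, and nwk, an F-BAR protein gene, from 352 to 989. Amph, the amphiphysin gene, was low, at 43.2 to 435, with a coefficient of variation of 67.2%. The log2 change of nwk for 24 h with 6 h in B and C was 0.81 ± 0.38 (limma, adjusted p = 0.221), and that of lap was -0.32 ± 0.26 (adjusted p = 0.554).

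**Figure D4:**
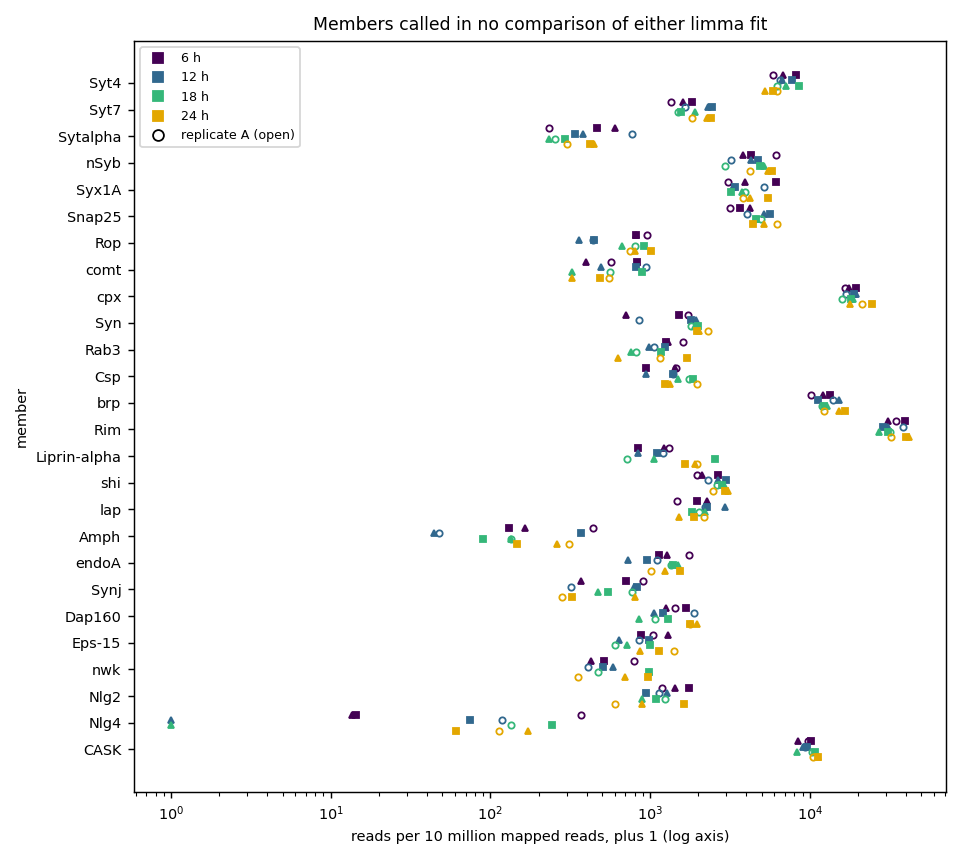
Values plus 1 (reads per 10000000 mapped reads, log axis) of the 26 members tested but called in no comparison of either limma fit, with colours for the 4 times, open circles for A, squares for B and triangles for C. Rim, cpx, brp and CASK each span a narrow range, CASK from 8364 to 11243, while Amph and Nlg4 spread widely.

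In adhesion and scaffolding, 2 members were higher (Nrx-1 and Nlg3) and 1 lower (dlg1) at 24 h than at 6 h in B and C. Of all genes, 5.29% were called higher and 4.78% lower. Neurexin (Nrx-1), the presynaptic partner of the neuroligins (FBgn0038975, chr3R:22468512-22486969, plus strand), had 11208, 5657 and 2335 at 6 h, 4183, 6318 and 5856 at 12 h, 6856, 7046 and 6707 at 18 h, and 8216, 8806 and 9602 at 24 h. The 3 libraries at 6 h lay far apart, with A the highest of all 12 and C the lowest. The log2 change was 1.34 ± 0.30 in B and C (limma, adjusted p = 0.00771), a call lost without the 6 h replicate C or either 24 h library, and 0.74 ± 0.39 over 12 libraries (adjusted p = 0.421).

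Nlg3, a neuroligin gene (FBgn0083963, chr3R:7570281-7639434, minus strand), had 874, 879 and 576 at 6 h, 1136, 1901 and 2153 at 12 h, 2112, 1895 and 1667 at 18 h, and 1521, 1427 and 1474 at 24 h. Every later library lay above those at 6 h, replicate A included, and the values at 24 h lay between those at 6 h and those at 18 h. The log2 change in B and C was 1.51 ± 0.30 for 12 h with 6 h (limma, adjusted p = 0.00531) and 1.03 ± 0.30 for 24 h with 6 h (adjusted p = 0.0374). Over 12 libraries these were 1.13 ± 0.28 (adjusted p = 0.864) and 0.95 ± 0.28 (adjusted p = 0.197). The 24 h call was lost when any library of B and C other than the 6 h replicate B was left out, and the 12 h call without the 12 h replicate C. The 24 h call was also lost without the filter and with edgeR.

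The other neuroligin genes were not called. Nlg2 ranged from 602 to 1761. Nlg4, named after its values were seen, had 366, 13.3 and 12.5 at 6 h, 117, 73.6 and 0 at 12 h, 134, 241 and 0 at 18 h, and 112, 60.1 and 171 at 24 h, and its libraries of 1 time differed more than the times did. Nlg1 had 0 reads in 12 of 12 libraries, which allows a value of up to 7.99 to 18.8 per library (3 reads), a limit that covers counting error only.

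The scaffold gene dlg1, whose product Discs large clusters receptors and channels at the synapse (FBgn0001624, chrX:11369665-11409776, plus strand), had 2804, 11991 and 12346 at 6 h, 9168, 5558 and 5354 at 12 h, 4289, 3262 and 4229 at 18 h, and 5879, 4882 and 4285 at 24 h. As for unc-13-4A, B and C were highest at 6 h and replicate A was low at 6 h and high at 12 h. In B and C it fell to 4584 ± 422 at 24 h, against 12169 ± 251 at 6 h (SD, n = 2 each), with a log2 change of -1.41 ± 0.20 (limma, adjusted p = 1.69e-04). For 12 h with 6 h the log2 change was -1.16 ± 0.20 (adjusted p = 0.00217). Over 12 libraries it was -0.58 ± 0.43 for 24 h with 6 h (limma, adjusted p = 0.593) and -0.20 ± 0.43 for 12 h with 6 h (adjusted p = 0.995).

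CASK, a scaffold kinase of the same protein family, had 9713, 10099 and 8383 at 6 h, 9381, 9641 and 9023 at 12 h, 10295, 10835 and 8364 at 18 h, and 10446, 11243 and 11236 at 24 h. Its coefficient of variation of 10% was the smallest of the 38 signals. The gene CRG lies inside it on the same strand (2669 shared bases), so the reads of the pair may not be told apart.

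Beyond these genes, 58 other genes of the vesicle cycle, endocytosis and active zone were looked up, of which 57 were tested. Over 12 libraries 0 were called by limma, with 15 at an unadjusted p under 0.05 for 24 h with 6 h, beside 13.5% of all genes. In B and C, 11 were called for 24 h with 6 h, 6 higher and 5 lower, beside 10.1% of all genes. For 12 h with 6 h 6 were called, beside 5.6% of all genes. Higher were Tomosyn, an inhibitor of SNARE assembly (log2 change 1.36 ± 0.20, limma, adjusted p = 1.69e-04), Cip4, an F-BAR protein (1.25 ± 0.34), Cadps, the CAPS priming factor of dense-core vesicles (1.15 ± 0.26), Liprin-gamma (1.06 ± 0.28), and the spectrins beta-Spec (0.86 ± 0.18) and alpha-Spec (0.72 ± 0.20). Lower were Srpk79D, a kinase that keeps Bruchpilot from clumping in axons (-1.92 ± 0.23, adjusted p = 3.81e-05), X11Lbeta (-1.70 ± 0.17), Sh3beta (-1.61 ± 0.27), Snap29 (-1.20 ± 0.32) and the chaperone gene Hsc70-4 (-0.81 ± 0.19).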

How the data were processed

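RNA of sorted γ neurons was measured in 12 libraries, 3 at each of 4 times. The method was MARS-seq, which reads 3′ ends, per the labels' protocols. Of tools, the submitters' processing notes list HISAT 0.1.5, HOMER and bcl2fastq, with no role stated. The deposited table holds a normalised signal per gene, which the authors scaled to 10000000 mapped reads, per the file headers. For molecular identifiers and overlapping genes, the counting rule was not given in the sources used here. In each library 100% of values were whole multiples of 1 read (tolerance 0.02 reads).

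The main test was limma 3.58.1 in R 4.3.3, run on log2(value + 1) with a trend of variance on intensity, since the values are normalised. Had the table held raw counts, edgeR was to take its place. Fold changes on this scale understate those of low genes. The 6969 genes that reached a value of 50 in 3 or more libraries were tested, and p-values were adjusted over them. Alternatives were pseudocounts of 0.5 and 5, no filter, a mean of at least 100, median-ratio scaling, no trend, edgeR 4.0.16 and DESeq2 1.42.0 on recovered reads, the replicate letter as a block, and leaving out libraries. The fit was tested on simulated data in which no library went against its label, so that test does not bear on replicate A at 6 h and 12 h. Coordinates are the table's starts plus 1 (dm6), and for 39 of 40 members they equal the BDGP6 annotation (Rab3-GEF differs).

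Members and lists were chosen with earlier results of these data known. Full values are given for members called in either set of libraries, those with an unadjusted p under 0.05 for 24 h with 6 h over 12 libraries, the 5 with the highest means, and those under the filter, and also for Rop and Nlg4, which fall outside this rule.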

Additional observations from a re-analysis of the deposited data

How the results depend on the processing

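Over 12 libraries, DESeq2 called 4 members for 24 h with 6 h and 2 for any change. Leaving out 1 library gave 0 to 11 members for 24 h with 6 h, 0 to 1 for 12 h with 6 h and 0 to 7 for any change, and every count above 0 came without the 6 h replicate A, when 676, 60 and 506 of all 6969 genes were called. With B and C only, counts were 11, 6, 1, 1 and 10 for 24 h with 6 h, 12 h with 6 h, 18 h with 12 h, 24 h with 18 h and any change. The 10 libraries left after 6 h and 12 h replicate A, an alternative chosen after seeing the data, gave 12, 7, 0, 0 and 10, beside 804, 359, 0, 10 and 649 of all genes. In B and C, counts fell to 4, 1, 0, 0 and 2 without the intensity trend, and to 0 for 18 h with 12 h and 24 h with 18 h without the filter. There DESeq2 gave 2 and 3. Leaving out 1 library of B and C gave 6 to 10 for 24 h with 6 h, 4 to 8 for 12 h with 6 h, 0 to 1 for the later steps and 6 to 9 for any change, with the lone library assumed to vary like the others. For 24 h with 6 h the lowest counts came without the 24 h replicates B (6) and C (7), and for any change without the 6 h replicate C (6). Each fit that left out 1 library of B and C also called fewer of all genes than the fit of 8 libraries. This held for 24 h with 6 h, 12 h with 6 h and any change. The cause of these changes was not tested.

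The signs of log2 changes were followed for the 14 members called in B and C or with an unadjusted p under 0.05 for 24 h with 6 h over 12 libraries. For 12 h with 6 h over 12 libraries, none called, 6 of these changed sign. For Fife they were -0.23 with DESeq2 and -0.23 with edgeR, and for Sytbeta -0.77 and -0.78. For Nrx-1 they were -0.27 with DESeq2, -0.26 with edgeR and -0.035 with median-ratio scaling. Leaving out 1 library gave -0.41 to 0.74 for Fife, -0.57 to 0.56 for Nrx-1, -0.16 to 0.61 for Syn, -0.47 to 2.001 for Sytbeta, -0.91 to 0.16 for dlg1 and -0.044 to 0.96 for stnA. None of these 14 changed sign for 24 h with 6 h, and the other members were not followed. Median-ratio scaling moved the median of all genes by 0.12 for 24 h with 18 h over 12 libraries, by 0.11 in B and C, and by -0.13 for 12 h with 6 h in B and C.

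Correlations of same-letter deviations from the time means ran from -0.34 to 0.07. The lowest was between replicate A at 6 h and at 12 h, which went against their labels. Pairs of different letters were not computed for comparison, so these values cannot decide whether the letters pair the libraries. With the replicate block, 0 members were called over 12 libraries and 11 for 24 h with 6 h in B and C, beside 0 and 734 of all genes.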
